A study of Mus musculus with 9 samples.

Results

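Integrins are cell-surface receptors made of an α and a β subunit. They bind proteins of the extracellular matrix outside the cell and, through talin and kindlin, link them to the actin cytoskeleton and to kinases such as focal adhesion kinase inside it. Which matrix protein a receptor binds depends on the α subunit and its β partner. In the growing follicle, granulosa cells rest on a basal lamina of laminin and type IV collagen, and integrins are the receptors through which cells hold to such matrix. Transcripts of 10 integrin subunit genes, 7 encoding α subunits (Itga1, Itga2, Itga3, Itga5, Itga6, Itga9 and Itgav) and 3 encoding β subunits (Itgb1, Itgb3 and Itgb5), are described here out of 52025 genes listed, at the days when the first follicular antra form. The genes were picked by symbol, and they were selected on earlier results of the same libraries, with both their levels and their changes known. They coincide with the 10 highest of the 27 integrin subunit genes by mean FPKM (fragments scaled by exon length and library depth), with Itga3 at a mean of 4.84 just inside and Itga11 at 3.997 just outside. Their levels and calls are therefore a description, and the counts below carry no evidence about integrins as a group.

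The ovaries of juvenile Kunming mice were sequenced on postnatal day (PD) 14, PD15 and PD16, with 3 libraries for each day and 9 in all, to follow the ovary while its first follicles form an antrum (initial antrum formation, iFFA). The labels give the tissue as ovary but the source as granulosa cells, whereas the methods of the study describe whole ovaries. All 8 granulosa cell markers had a mean FPKM above 1, but so did all 10 oocyte markers, with a summed FPKM of 937 to 1327 over the libraries, and all 7 theca and interstitial markers, with 1182 to 2231, so the libraries held more than granulosa cells. Such sums follow their most abundant genes. Among the theca and interstitial markers, Hsd3b1 had a mean of 1449 FPKM and Insl3 of 4.2 FPKM. In such bulk tissue, fewer cells of a type and less RNA per cell cannot be told apart. Depth, derived from the step that 1 fragment makes in low FPKM values, was 20.4 to 28.7 M fragments per library. The study describes the 3 libraries of a day as independent ovaries, but neither it nor the labels say whether these came from separate animals, so p-values measure the spread between these libraries only.

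The subunit genes whose difference between days passed the test were Itga2, an α subunit of collagen receptors, and Itgav, the α subunit of receptors for vitronectin and other ligands with an RGD motif. The sequences around their start sites are shown because these members passed the test, which does not make the other members unchanged. The Itgav call depended on the libraries and settings used, as given below. Each is a 300-base window of the GRCm38.p6 assembly from RefSeq, written on the strand of the gene, and capitals mark the GC box, GGGCGG, searched on both strands. The window of Itgav lies at chr2:83724147-83724446 on the plus strand, and that of Itga2 at chr13:114932051-114932350 on the minus strand.
Itgav: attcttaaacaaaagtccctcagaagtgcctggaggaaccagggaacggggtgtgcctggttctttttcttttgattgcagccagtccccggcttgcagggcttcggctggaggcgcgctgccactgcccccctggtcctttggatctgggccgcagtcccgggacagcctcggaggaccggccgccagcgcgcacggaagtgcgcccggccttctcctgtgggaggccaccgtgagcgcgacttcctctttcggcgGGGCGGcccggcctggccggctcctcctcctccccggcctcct
Itga2: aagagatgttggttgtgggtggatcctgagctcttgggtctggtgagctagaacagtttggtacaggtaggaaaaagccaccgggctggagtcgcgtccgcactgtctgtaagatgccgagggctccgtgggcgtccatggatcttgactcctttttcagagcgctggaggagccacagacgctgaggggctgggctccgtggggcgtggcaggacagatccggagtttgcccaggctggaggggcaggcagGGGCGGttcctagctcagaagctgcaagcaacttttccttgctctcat

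The G and C content was 67.3% for Itgav and 59.3% for Itga2, against a median of 52.7% over 32851 RefSeq promoters of the same length. Each window held 1 GC box, which began 7 bases after the start site in Itgav and 2 bases after it in Itga2. A GC box occurred in 35.7% of all promoters. None of the other letters searched, on both strands, was found in either window. These were the TATA box TATAAA (in 13.6% of all promoters), the CCAAT box CCAAT (37.4%), the E-box CANNTG (72.3%), the AP-1 site TGANTCA (7.81%), the cAMP response element TGACGTCA (1.79%) and the TEAD site GGAATG (14.7%). RefSeq promoters were matched for 8 of the 10 members, all except Itga6 and Itgb3. A match is a description of the letters, not of a bound site.

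The levels of the members spanned from a mean of 4.84 FPKM for Itga3 to 174 FPKM for Itgb1, which stood at the 98.6th percentile of the 15495 genes tested. Below Itgb1 came Itga6 with a mean over the 9 libraries of 62.2 FPKM, Itgb5 with 47.8, Itgav with 35.0, Itga9 with 25.2, Itgb3 with 15.5 and Itga5 with 10.1. The lowest 3 were Itga2 with 6.05, Itga1 with 5.27 and Itga3 with 4.84, and their ranges over the libraries overlapped. Itga2 was above Itga1 in 6 of 9 libraries, and Itga1 was above Itga3 in 5 of 9. Itgb5 and Itgav overlapped in range, yet Itgb5 was higher within each of the 9 libraries, and Itga6 was above Itgb5 in 8 of 9. The members took 95.9% to 97.2% of the summed FPKM of all integrin subunits in a library.

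**Figure D1:**
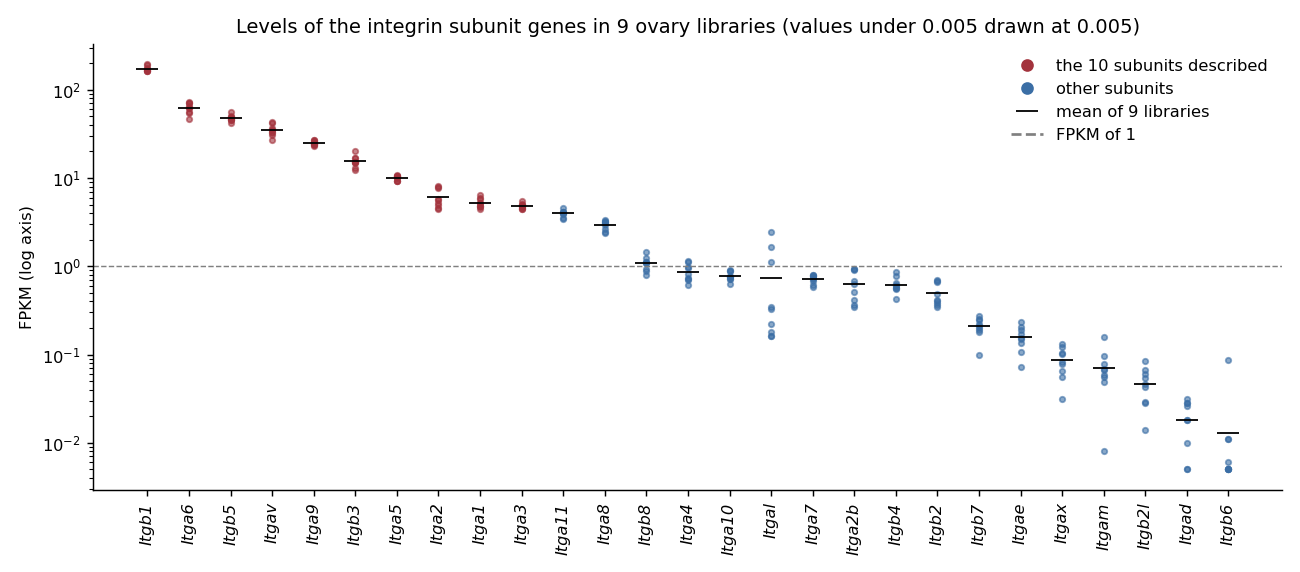
FPKM of the 27 integrin subunit genes on a log axis, with each of the 9 libraries as a point and the mean as a bar (a second, near-silent entry under the symbol Itgam is left out). Itgb1 stands highest with a mean of 174 FPKM, the 10 subunits described lie above 4 FPKM in all libraries, and most of the others lie below the dashed line at 1 FPKM.

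To see whether the receptor make-up of the ovary differed between the days of iFFA, each pair of days was compared with limma on log2(FPKM + 1) over all 15495 genes, and a gene was called at a Benjamini-Hochberg adjusted p under 0.05. Between PD14 and PD16, 2 of the 10 members were called, both higher on PD16, while 4.25% of all genes tested were called. Between PD15 and PD16, 1 member, Itga2, was called, against 0.729% of all genes. Between PD14 and PD15, 0 members were called by limma, and 2, Itga2 and Itgb5, had an unadjusted p under 0.05, while 0.678% of all genes were called and 14.7% had an unadjusted p under 0.05. The median log2 change of the members was 0.0003 at PD15 and 0.04 at PD16 against PD14, and 0.07 at PD16 against PD15, whereas the median over all genes tested was 0.01 in each comparison. The comparisons share the libraries of a day, and so are not independent of each other.

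**Figure D2:**
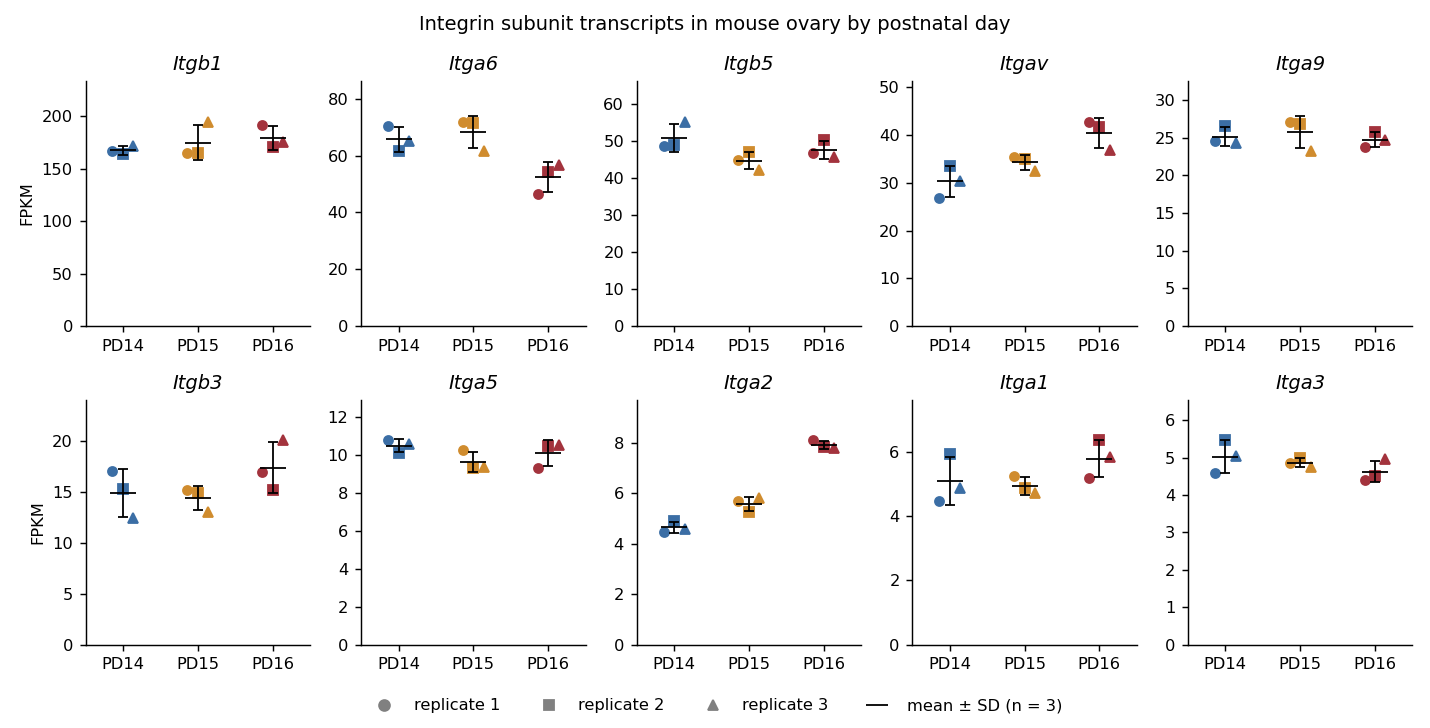
FPKM of each of the 10 integrin subunits in every library by postnatal day, each panel with its own linear axis from 0. Points are libraries, with the replicate number as the shape, and bars are the mean ± SD of 3 libraries. The Itga2 libraries stand apart on all 3 days, Itgav is highest and Itga6 lowest on PD16, and the other 7 overlap between PD14 and PD16.

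The β chain Itgb1, encoding the common partner of many α subunits, was the most abundant member and differed little between days. It measured 167, 164 and 172 FPKM on PD14, 165, 165 and 195 on PD15, and 192, 171 and 175 on PD16. The days overlapped, with 1 high library on each of PD15 and PD16. The log2 change of PD16 against PD14 was 0.10 with a 95% confidence interval of -0.10 to 0.29 (limma, adjusted p = 0.538), so that a rise of over 0.29 lies outside the interval.

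Itga1 and Itga2 encode the α subunits of collagen receptors that pair with the product of Itgb1. Itga2 measured 4.45, 4.90 and 4.59 FPKM on PD14, 5.68, 5.26 and 5.81 on PD15, and 8.10, 7.84 and 7.79 on PD16. All PD15 libraries were above all PD14 libraries, and all PD16 libraries were above both. The means were 4.65 ± 0.23, 5.58 ± 0.29 and 7.91 ± 0.17 FPKM (SD, n = 3 for each day), and the PD16 mean was 1.70-fold that of PD14. The log2 change was 0.66 ± 0.06 (SE) for PD16 against PD14 (limma, adjusted p = 0.00419) and 0.44 ± 0.06 for PD16 against PD15 (adjusted p = 0.0214). For PD15 against PD14 it was 0.22 ± 0.06, which did not pass (adjusted p = 0.133). The rise from PD14 to PD16 was called whichever library was left out, while that from PD15 to PD16 was lost without PD15 replicate 1, PD15 replicate 2 or PD16 replicate 1, with an adjusted p of up to 0.0811.

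Itga1 lay beside Itga2 in level and in the genome but not in its course. It measured 4.47, 5.91 and 4.87 FPKM on PD14, 5.26, 4.86 and 4.70 on PD15, and 5.19, 6.35 and 5.82 on PD16, and the days overlapped. Its log2 change of PD16 against PD14 was 0.16, with a 95% confidence interval of -0.06 to 0.38 (limma, adjusted p = 0.361). The ratio of Itga2 to Itga1 FPKM within a library ran from 0.829 to 0.997 on PD14, from 1.08 to 1.24 on PD15 and from 1.23 to 1.56 on PD16. Itga1 was thus the higher of the pair in FPKM in all PD14 libraries and Itga2 in all others. This order rests on the exon lengths behind the FPKM, which may differ from those of GENCODE M21 for both genes. Such a ratio of 3 against 3 libraries cannot give an exact permutation p below 0.1, and none is given for the ratios here, which are built from members with known changes. Exons of Itga1 overlap those of Gm49395 on the same strand, for which no value was used here.

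Itga6 and Itga3 encode laminin-binding α subunits. Itga6, the most abundant α subunit transcript, measured 70.6, 61.7 and 65.0 FPKM on PD14, 71.9, 71.5 and 61.8 on PD15, and 46.7, 54.4 and 56.6 on PD16. All 3 PD16 libraries were below all libraries of PD14 and PD15, and those 2 days overlapped. The log2 change was -0.32 ± 0.09 (SE) for PD16 against PD14 and -0.38 ± 0.09 for PD16 against PD15, neither of which passed (limma, adjusted p = 0.0831 and 0.105). With array weights, which give libraries closer to the fit more weight, both were called (adjusted p = 0.0494 and 0.0495). Itga3 measured 4.59, 5.46 and 5.03 FPKM on PD14, 4.86, 4.98 and 4.74 on PD15, and 4.41, 4.51 and 4.95 on PD16. Its days overlapped, and its log2 change of PD16 against PD14 was -0.10 (95% confidence interval -0.26 to 0.06).

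Itgav pairs with Itgb3, Itgb5 and Itgb1 products into receptors for RGD ligands. It measured 26.9, 33.5 and 30.4 FPKM on PD14, 35.4, 35.0 and 32.5 on PD15, and 42.8, 41.7 and 36.9 on PD16. The PD16 libraries were all above those of PD14 and PD15, and PD15 replicate 3 fell within the PD14 range. The means were 30.3 ± 3.28, 34.3 ± 1.54 and 40.5 ± 3.10 FPKM (SD, n = 3 for each day), and the PD16 mean was 1.34-fold that of PD14. The log2 change of PD16 against PD14 was 0.41 ± 0.09 (SE; limma, adjusted p = 0.0355), and that of PD16 against PD15 was 0.23 ± 0.09 (adjusted p = 0.265). The call was kept in 3 of 9 fits that each left out 1 library, and was lost without PD14 replicate 1 or 3, PD15 replicate 1 or 2, or PD16 replicate 1 or 2, with an adjusted p of up to 0.118. It was also lost when libraries were scaled to equal sums over protein-coding genes, when low genes were not filtered out and when only the 6 libraries of both days were fitted. These values rest on 6662 to 10947 fragments per library, whose counting error was 0.96% to 1.23%.

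Itgb5 and Itgb3 encode β partners of Itgav, and neither was called in any comparison. Itgb5 measured 48.6, 49.0 and 55.3 FPKM on PD14, 45.1, 47.0 and 42.3 on PD15, and 46.9, 50.3 and 45.6 on PD16. Its PD15 libraries were all below those of PD14, but the log2 change of -0.18 did not pass (limma, adjusted p = 0.277), and its PD16 libraries overlapped both days. Itgb3, known from platelets and osteoclasts, measured 17.0, 15.2 and 12.4 FPKM on PD14, 15.2, 14.9 and 13.0 on PD15, and 16.9, 15.1 and 20.04 on PD16. The days overlapped, and the highest value, in PD16 replicate 3, was 1.62-fold the lowest. Its log2 change of PD16 against PD14 was 0.21, with a 95% confidence interval of -0.07 to 0.49. Of the 5 platelet markers, Pf4 was present in every library at 2.97 to 6.95 FPKM, Gp9 and Ppbp were at 0 in at least 1 library, and the sum ran from 4.12 to 7.47 FPKM on PD14, 3.52 to 6.47 on PD15 and 4.13 to 6.10 on PD16. The part of platelets in the Itgb3 values was not tested. The ratio of Itgb3 and Itgb5 together to Itgav was 2.19 ± 0.26 on PD14, 1.72 ± 0.04 on PD15 and 1.61 ± 0.15 on PD16 (SD, n = 3 for each day).

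Itga5, whose product forms the classical fibronectin receptor with that of Itgb1, stayed between 9.30 and 10.8 FPKM in all libraries. Its log2 change of PD16 against PD14 was -0.05 (95% confidence interval -0.20 to 0.09). Itga9, whose product binds tenascin and osteopontin among others, stayed between 23.2 and 27.1 FPKM, with a log2 change of -0.02 (95% confidence interval -0.18 to 0.14). Of the α subunits, these and Itga3 had the narrowest ranges, with a highest library 1.16-fold the lowest for Itga5, 1.17-fold for Itga9 and 1.24-fold for Itga3.

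**Figure D3:**
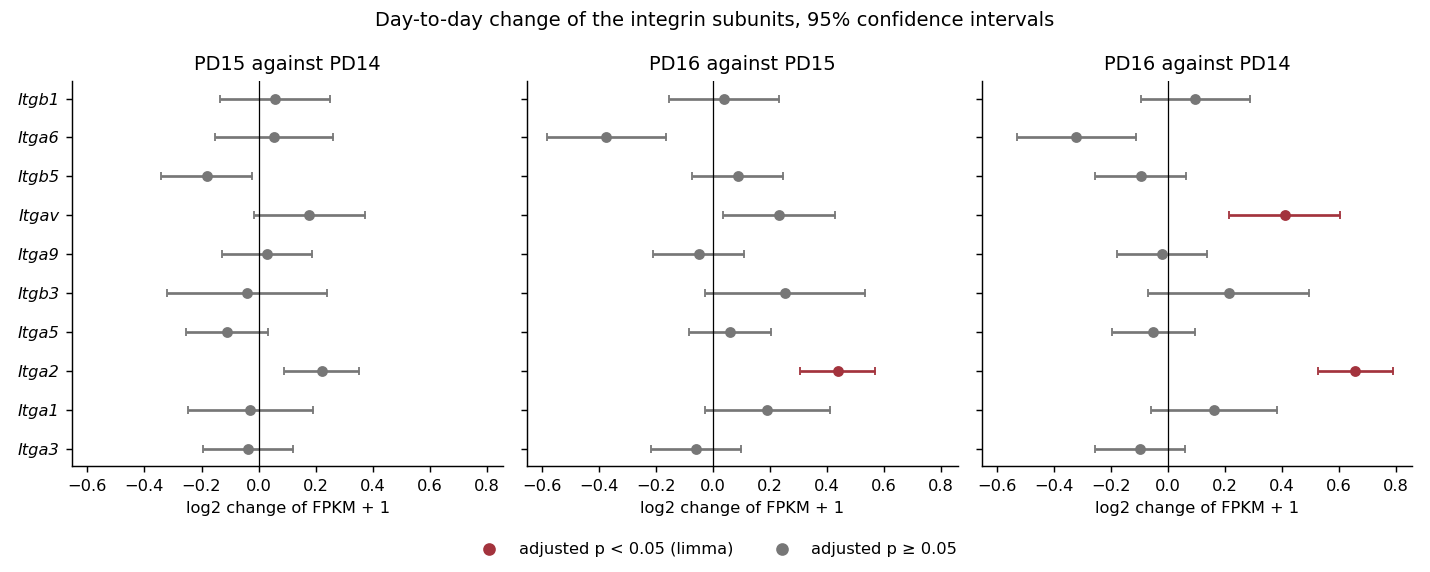
Log2 change of FPKM + 1 between days for the 10 integrin subunits, ordered by level, with 95% confidence intervals from limma. Red marks genes that passed the adjustment at 0.05. Itga2 is called in both comparisons with PD16 and Itgav in that with PD14, and the Itga6 intervals at PD16 lie below 0 without passing the adjustment.

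Counted by the libraries themselves, 3 members did not overlap between PD14 and PD16, with Itga2 and Itgav above and Itga6 below, while 28.5% of all genes tested did not overlap between these days. The same 3 members did not overlap between PD15 and PD16, against 19.6% of all genes. Between PD14 and PD15, Itga2 was above and Itgb5 below, and 20.6% of all genes did not overlap.

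The sum of the α subunit transcripts and the share of each in it are given as a description, with no test, since they are built from members with known changes. The summed FPKM of the 7 α members was 146 ± 1.69 on PD14, 153 ± 9.85 on PD15 and 146 ± 5.48 on PD16 (SD, n = 3 for each day). Itga6 made up 41.7% to 48.2% of this sum on PD14, 43.5% to 45.3% on PD15 and 33.3% to 38.4% on PD16. Itgav made up 18.4% to 22.6%, 22.0% to 22.9% and 25.1% to 30.5% on the same days. The PD16 libraries stood apart from the others in both shares. The share of Itga2 was 3.17% ± 0.13 on PD14 and 5.42% ± 0.31 on PD16, and that of Itga9 was between 16.3% and 17.9% in all libraries. The ratio of Itgav to Itga6 was 0.464 ± 0.081 on PD14, 0.502 ± 0.021 on PD15 and 0.779 ± 0.132 on PD16. Itgb1 over the summed α members was 1.15 ± 0.04, 1.15 ± 0.19 and 1.23 ± 0.13 on the 3 days, which overlapped.

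**Figure D4:**
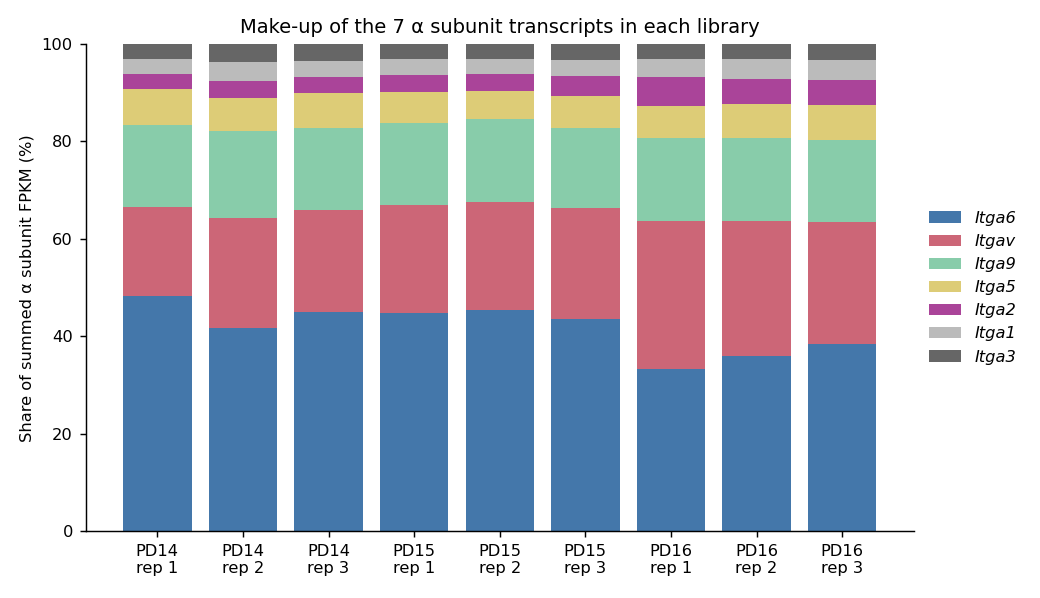
Share of each α subunit in the summed FPKM of the 7 α members, in percent, with 1 bar for each of the 9 libraries. Itga6 takes 33.3% to 38.4% in the PD16 libraries and 41.7% to 48.2% in the others, and Itgav takes 25.1% to 30.5% on PD16 and 18.4% to 22.9% before.

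The called members, Itga2 and Itgav, lie on different chromosomes, and Itga2 is a neighbour of Itga1, which was called in no comparison. In GRCm38 with the GENCODE M21 annotation, Itga2 spans chr13:114833081-114932100 and Itga1 chr13:114953096-115101964, both on the minus strand. Itga6 (chr2:71745616-71858416) and Itgav (chr2:83724397-83806916) share a chromosome, both on the plus strand. Itga9 lies at chr9:118606690-118901003 on the plus strand, and Itga5 at chr15:103344286-103366763 on the minus strand. Itga3 lies at chr11:95044474-95076801 on the minus strand and Itgb3 at chr11:104608000-104670476 on the plus strand. Itgb1 is at chr8:128685654-128733200 and Itgb5 at chr16:33829665-33949338, both on the plus strand. The FPKM of a gene counts fragments over its exons. Exons of Gm13684 lie opposite those of Itgav and had a mean of 0.079 FPKM.

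Over the 9 libraries, log2(FPKM + 1) of Itga2 and Itgav ran together with a Pearson r of 0.89, and both ran against Itga6, with r of -0.81 and -0.74. The libraries share their days, so these values describe the day means as much as the libraries. Among 12485 protein-coding genes tested, the courses most like that of Itga2 were those of Max, the dimer partner of Myc (r = 0.99), Cdca7l (0.98), Derl3, a factor of endoplasmic-reticulum-associated degradation (0.98), Uhrf2 (0.98) and Fam78a (0.97). Derl3 had means of 22.6, 27.9 and 42.9 FPKM on PD14, PD15 and PD16. The courses most like that of Itgav were those of Evc2, a ciliary protein of hedgehog signalling (0.99), Htra1, a secreted serine protease (0.98), Sel1l3 (0.98), Fam83d (0.97) and Snx18, a sorting nexin (0.97). Htra1 had means of 142, 164 and 214 FPKM.

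The other 17 integrin subunits were low. For 12 of them the mean was not above 1 FPKM on any day, with the highest single library at 0.934 FPKM, and they were not tested. They comprise the leukocyte and platelet subunits Itgam, Itgax, Itgb2 and Itga2b, the epithelial Itgb4 and Itgb6, and 6 more. Of the 5 tested, 0 were called by limma in any comparison, and the number with an unadjusted p under 0.05 was 1 for PD15 against PD14, 0 for PD16 against PD14 and 1 for PD16 against PD15, against 14.7%, 22.8% and 14.1% of all genes tested. Itga11, a collagen-binding α subunit of mesenchymal cells, was the highest of them with means of 4.28, 3.87 and 3.85 FPKM on PD14, PD15 and PD16. Itga8, the receptor subunit for nephronectin, measured 3.20, 3.14 and 2.94 FPKM on PD14, 2.42, 2.63 and 2.40 on PD15, and 3.07, 3.37 and 3.29 on PD16. Its PD15 libraries were below those of both other days, without passing the adjustment (limma, adjusted p = 0.156 and 0.0929). Itgb8, a β subunit that pairs with Itgav products, had means of 0.928, 1.04 and 1.28 FPKM. Its PD16 libraries were all above those of PD14 and PD15, without passing the adjustment (limma, adjusted p = 0.2255 and 0.5687). Of the 5 tested, 1 stood above and 1 below without overlap between PD14 and PD16, against 28.5% of all genes.

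Inside the cell, 38 integrin partners were listed and 34 were tested. Between PD14 and PD16, 3 of the 34 were called higher and 1 lower, against 4.25% of all genes, and the median log2 change was 0.01, as over all genes. The largest change was that of Lims2, which encodes PINCH2, an adaptor in the complex with integrin-linked kinase. Lims2 measured 2.66, 4.17 and 4.62 FPKM on PD14, 2.65, 4.06 and 3.98 on PD15, and 9.10, 10.96 and 11.3 on PD16. The PD16 libraries were all above both other days, which overlapped. The log2 change was 1.27 ± 0.18 (SE) for PD16 against PD14 (limma, adjusted p = 0.0106) and 1.34 ± 0.18 for PD16 against PD15 (adjusted p = 0.0213). The call for PD16 against PD15, the only one among the 34 partners in that comparison, against 0.729% of all genes, was lost without PD15 replicate 1, without PD16 replicate 3 or without a filter on low genes, with an adjusted p of up to 0.0811.

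Fermt2, encoding kindlin-2, which binds β subunit tails and activates integrins, had means of 58.9 ± 0.77, 68.9 ± 3.35 and 73.0 ± 3.64 FPKM on PD14, PD15 and PD16 (SD, n = 3 for each day), with all PD15 and PD16 libraries above PD14. Its log2 change of PD16 against PD14 was 0.30 ± 0.06 (limma, adjusted p = 0.0294). Arhgef7, encoding the exchange factor β-PIX, had means of 9.82 ± 0.62, 10.2 ± 0.53 and 12.7 ± 0.86 FPKM, with a log2 change of 0.34 ± 0.07 (adjusted p = 0.0315). Tns3, encoding a tensin that links β tails to actin, fell from 24.7 ± 1.03 on PD14 to 17.6 ± 1.71 FPKM on PD16, a log2 change of -0.47 ± 0.07 (adjusted p = 0.0138). The most abundant partner was Flna, the actin cross-linker filamin A, with means of 104, 109 and 113 FPKM that overlapped between days. The Fermt2 call was lost without any 1 PD14 library or PD16 replicate 1 or 3, the Arhgef7 call without PD14 replicate 1 or 3, PD15 replicate 2 or PD16 replicate 1 or 2, and the Tns3 call without PD14 replicate 3 or PD16 replicate 1, with adjusted p of up to 0.104, 0.109 and 0.0569. Between PD14 and PD15, 0 of 34 partners were called by limma, and 6 had an unadjusted p under 0.05, against 0.678% and 14.7% of all genes.

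Of 32 ligand genes, 28 were tested, and 1 was called, higher on PD16 than on PD14, while 4.25% of all genes were called. This was Thbs1, encoding thrombospondin 1, a matrix protein that binds Itgav-containing receptors. Thbs1 measured 179, 172 and 153 FPKM on PD14, 210, 208 and 199 on PD15, and 218, 225 and 255 on PD16, and no days overlapped. Its log2 change of PD16 against PD14 was 0.47 ± 0.09 (SE; limma, adjusted p = 0.0266), and the call was lost without any 1 library of PD14 or PD16, with an adjusted p of up to 0.0958. Its mean over the 9 libraries was the highest of the list, followed by that of the fibrillar collagen Col3a1, with means of 186, 156 and 167 FPKM on the 3 days, which was above Thbs1 in all PD14 libraries. The median log2 change of the 28 ligands for PD16 against PD14 was -0.04, with 17 of 28 below 0. When a library was left out, this median ranged from -0.0792 to 0.0327, with 7 to 15 ligands above 0. Neither other comparison called a ligand by limma, and 8 had an unadjusted p under 0.05 for PD15 against PD14 and 2 for PD16 against PD15, where the same held for 14.7% and 14.1% of all genes.

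**Figure D5:**
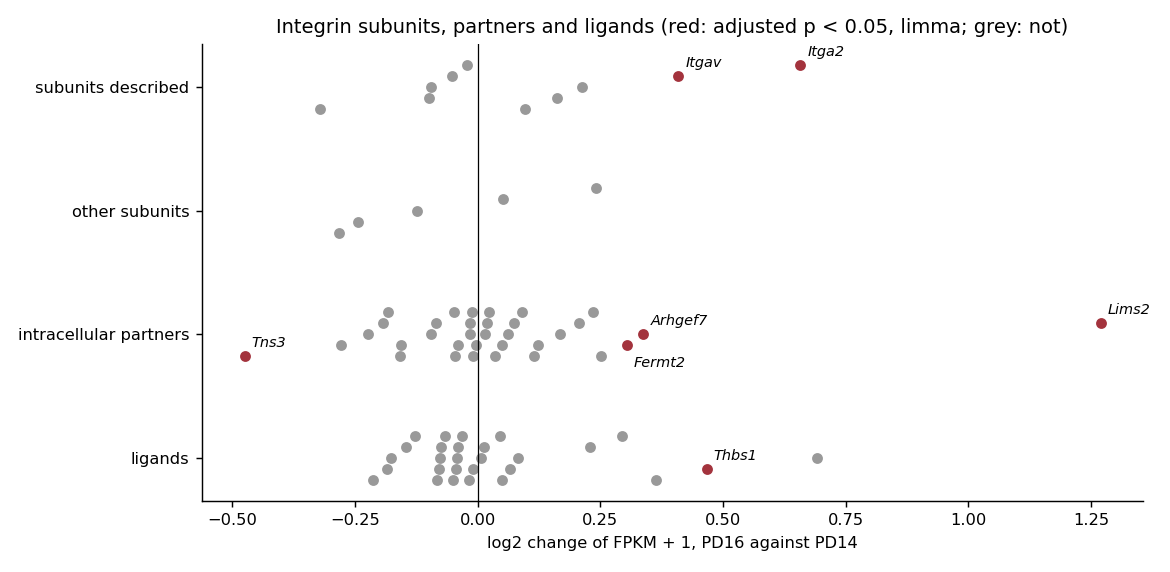
Log2 change of FPKM + 1 for PD16 against PD14 of the subunits described, the other subunits tested, the intracellular partners and the ligands, with 1 point per gene spread vertically for visibility. Red points have an adjusted p under 0.05 (limma) and carry their symbol. Lims2 stands farthest right at 1.27 and Tns3 farthest left at -0.47.

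Marker genes of other cell types also differed between days, in both directions. The sums given here follow the most abundant genes of each list and do not measure cell numbers. The 10 epithelial markers, of which Ovgp1 and Pax8 had a mean not above 1 FPKM, summed to 64.7 to 72.7 FPKM on PD14, 57.8 to 65.3 on PD15 and 49.9 to 55.2 on PD16. Of the 8 tested, Krt8, Krt18 and Krt19 fell between PD14 and PD16, against 4.25% of all genes called, while 3 others, Upk3b, Upk1b and Msln, had PD16 means of 1.015 to 1.115 times those of PD14 and were not called. The 10 oocyte markers summed to 1004 to 1239, 1255 to 1327 and 937 to 997 FPKM on the 3 days. The 1 called between PD14 and PD16, Bmp15, rose, with all PD16 libraries above those of PD14, whereas 8 of the other 9 had a change below 0. Between PD15 and PD16 all 10 had a change below 0. Of them, Zp2 was called lower on PD16 (limma, adjusted p = 0.0427), against 0.729% of all genes called. The 8 endothelial markers, all above 1 FPKM in mean, summed to 86.9 to 94.4, 80.7 to 84.8 and 78.8 to 82.1 FPKM, and Tie1 fell between PD14 and PD16. For each of these 3 sums, as for Itga6, the PD16 range lay below that of PD14, whereas for Itga2 and Itgav it lay above. The 6 smooth muscle markers, with Tagln not above 1 FPKM in mean, summed to 298 to 342, 287 to 382 and 327 to 445 FPKM, and the days overlapped. Between PD14 and PD16 all 6 had a change above 0, with a median log2 change of 0.23, and Cnn1 rose, as Itga2 and Itgav did. The 8 granulosa cell markers summed to 2710 to 3328, 2546 to 2926 and 2747 to 3217 FPKM, and between PD14 and PD16 Amh rose and Cyp19a1 fell. By quantitative PCR, the study instead reports higher Cyp19a1 and Cyp11a1 expression on PD15 and PD16. Cyp11a1, one of the theca and interstitial markers, had means of 46.8, 25.2 and 32.8 FPKM on PD14, PD15 and PD16. Its PD15 libraries were all below those of PD14, its PD16 libraries overlapped both days, and it was not called. The 5 stromal markers, all above 1 FPKM in mean, summed to 226 to 266, 181 to 253 and 228 to 267 FPKM, and the days overlapped. Between PD15 and PD16, 4 of these 5 had a change above 0, with a median log2 change of 0.20. The other, Pdgfra, had means of 32.4 FPKM on PD15 and 28.4 FPKM on PD16. Mfap5 was called higher on PD16 than on PD15 (limma, adjusted p = 0.0462), against 0.729% of all genes called. Unlike in Itga2, its PD15 libraries were all below those of PD14, and its PD16 libraries overlapped PD14. The 7 theca and interstitial markers summed to 1609 to 2231, 1182 to 1756 and 1211 to 1622 FPKM. The calls of single marker genes, here and below, were not followed through the alternative settings or the fits that left out a library. The part of these cell types in the integrin values was not tested.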

How the data were processed

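RNA sequencing libraries of ovaries at PD14, PD15 and PD16 (3 per day) were grouped by the day in their labels. The authors deposited 1 table per library of FPKM, fragment counts scaled by exon length and by mapped depth, and no further scaling was applied. The submitters' processing notes name HISAT2 2.0.5 and the mm10 build. The program that counted fragments and the annotation release are not given in the sources used here. GENCODE M21 held 97.0% of the listed identifiers and served for positions and exon lengths. With its lengths, 6 of the 10 members gave whole fragment counts within 0.02, and Itga1, Itga2, Itga5 and Itgb5 did not, so that their exon lengths may differ from those of the authors. Depth was 20.4 to 28.7 M fragments, derived from low values of which 94.3% to 94.7% were whole within 0.02.

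The 15495 genes whose day mean exceeded 1 FPKM on any day were tested as log2(FPKM + 1) with limma 3.58.1 (trend) in R 4.3.3, all 9 libraries in 1 model without covariates, with Benjamini-Hochberg adjustment over all of them. A fold on this scale understates the change of low genes. Python 3.11.15, NumPy 2.4.6, pandas 2.3.3 and Matplotlib 3.10.9 were used otherwise. Counts were not given, and no count test was run. The method was tested on simulated data with independent noise. The simulated shifts were larger than most of the called changes given here, so this test does not cover those. The members and gene lists were chosen with earlier results of these data known. All 10 members are named. Of the partners and ligands, the genes called in any comparison and the 2 of highest mean FPKM are named, of the other subunits tested the 3 highest and any called, and for each called member the 5 protein-coding genes with the most similar course. Marker genes and Itgal were named after their values were seen. Alternatives varied the pseudocount, the filter, the scaling and the limma options, added a replicate block, or left out each library in turn.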

Additional observations from a re-analysis of the deposited data

How the results depend on the processing

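Of 627 recomputed member changes, 597 kept their direction and side of the threshold, 14 lost a call, 2 gained one and 14 changed sign, none of the last called. The cause of these shifts was not tested, beyond that leaving out libraries leaves fewer samples. The Itga2 rise from PD14 to PD16 was called under all alternatives (adjusted p 0.00183 to 0.0214). The Itgav call was lost with equal protein-coding sums, without a filter, with only the 6 libraries compared and with the replicate block (adjusted p over all alternatives 0.0189 to 0.118), and the Itga2 call for PD16 against PD15 with the block (adjusted p = 0.0559).

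The 2 members called for PD16 against PD14 became 1 under those same 4 settings, 3 with array weights, which added Itga6, and 1 to 2 when a library was left out. The 1 called for PD16 against PD15 became 2 with array weights, 0 with the replicate block and 0 to 1 when a library was left out. The calls of Fermt2, Arhgef7 and Thbs1 for PD16 against PD14 were lost under those 4 settings too. Partners called for PD16 against PD14 fell from 4 to 2 under the same 4 settings, to 3 with quantile normalization, where Fermt2 was lost, and to between 1 and 4 when a library was left out. For PD16 against PD15, the 1 partner called became 2 with array weights, a mean above 5 FPKM, median-ratio scaling or quantile normalization, 0 without a filter and 0 to 2 when a library was left out. The 1 ligand called for PD16 against PD14 became 0 under the same 4 settings and with quantile normalization, and 0 to 1 when a library was left out. The median log2 change of the members for PD16 against PD14 ranged from -0.0058 with quantile normalization to 0.0963 with a mean above 5 FPKM. For PD15 against PD14 it ranged from -0.0232 to 0.0351 when a library was left out.

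Over all genes, the 105 calls for PD15 against PD14 became 184 with array weights, 59 with a mean above 5 FPKM, 29 without a filter, 47 with only 6 libraries and 24 with the replicate block, and 3 to 92 when a library was left out. The 659 for PD16 against PD14 became 172 without a filter, 320 with only 6 libraries and 227 with the block, and 93 to 666 when a library was left out. The 113 for PD16 against PD15 became 237 with array weights, 24 without a filter and 56 with the block, and 14 to 125 when a library was left out. Same-numbered libraries shared only a number, since their deviations from the day means correlated at -0.21 to 0.16.

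With array weights the Itga1 change for PD15 against PD14 turned to 0.0098. When a library was left out, the log2 changes that turned sign for PD15 against PD14 ranged from -0.103 to 0.0667 for Itga1, -0.0909 to 0.0136 for Itga3, -0.0083 to 0.0983 for Itga9, -0.0214 to 0.097 for Itgb1, -0.157 to 0.0568 for Itgb3 and -0.256 to 0.0829 for Lims2. For PD16 against PD14 they ranged from -0.0793 to 0.0022 for Itga5 and -0.0503 to 0.018 for Itga9, and for PD16 against PD15 from -0.0114 to 0.118 for Itgb1. Other changes for PD16 against PD14 kept their sign but ranged from 0.0876 to 0.257 for Itga1 and 0.0956 to 0.309 for Itgb3. Those of Itgb1 ranged from 0.0461 to 0.131, of Itga3 from -0.152 to -0.0474 and of Itgb5 from -0.135 to -0.0371. Counting error was 2.66% to 3.87% for Itga2, the member with a call at the lowest level, and covers counting only.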

Other observations

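Itgal, the α subunit of the leukocyte integrin LFA, differed widely between libraries of the same day. It measured 0.162, 2.47 and 1.12 FPKM on PD14, 0.161, 0.179 and 0.223 on PD15, and 0.345, 1.66 and 0.329 on PD16. These values stand for 26 to 392 fragments per library. The 9 leukocyte markers summed to 22.9 to 25.5 FPKM on PD14, 21.6 to 28.2 on PD15 and 25.1 to 28.0 on PD16. The 3 red blood cell markers summed to 80.5 to 111 FPKM on PD14, 32.1 to 44.3 on PD15 and 44.9 to 89.7 on PD16, and Hba-a1 fell between PD14 and PD15.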
